A study of Mus musculus with 64 samples.

Results

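The genes described here belong to hepatic fatty acid oxidation and to the targets of PPARalpha, a set of 41 genes named by their symbols. They comprise the enzymes of mitochondrial and peroxisomal beta-oxidation, the carnitine shuttle, electron transfer, acyl-CoA thioesterases, and the regulators, secreted proteins and lipid droplet proteins tied to them. Of the 41, 39 had a probe among the 16593 genes of the arrays, and 34 were measured above noise and tested among 10495 genes. Hadha, a subunit of the trifunctional protein, and Acsl1, an acyl-CoA synthetase, had no probe in the annotation used here. Cpt1a, the outer-membrane carnitine palmitoyltransferase that gates mitochondrial entry, Fabp1, the liver fatty acid binding protein, Vnn1, a pantetheinase, Cd36, a fatty acid transporter, and Crot, the peroxisomal carnitine octanoyltransferase, had probes that passed the noise limit on 0 to 5 of 64 arrays, and no level is given for them.

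The 64 arrays came from 31 male C57BL/6 mice. All of them, placebo animals included, had received 50 mg/kg of the liver carcinogen diethylnitrosamine at 2 weeks of age, and all were gavaged from about 44 weeks of age, 2 times per day for 28 days, and sampled at 48 weeks after a fast of 3 h. The gavage held placebo, or 30 mg/kg of BEZ235, or 10 mg/kg of RAD001, or both agents together at the lower doses of 2.5 mg/kg (RAD001) and 18 mg/kg (BEZ235). The last RAD001 dose came at the start of the fast and the last BEZ235 dose 1 h before sacrifice. RAD001 (everolimus) inhibits mTORC1, and BEZ235 inhibits the kinase sites of PI3K and mTOR. The 27 livers were 7 on placebo, 6 on BEZ235, 7 on RAD001 and 7 on the combination. Of the 37 tumours, the placebo, BEZ235 and RAD001 arms gave 10 each, every time from 6 mice, and the combination arm gave 7 from 4 mice. No animal without the carcinogen was analysed here, so that the livers are carcinogen-exposed tissue. Of the 27 livers, 18 were from mice that also gave a tumour array. Values are log2 intensities with 1 value per animal and tissue, the tumours of an animal being averaged. Ranges, medians and overlaps given for tumours are therefore those of animal means, and single tumours can lie outside them. The limit for a call was an adjusted p of 0.05.

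Fatty acids enter mitochondria as carnitine esters and are shortened there by repeated cycles of dehydrogenation, hydration, oxidation and thiolysis, whose electrons pass through the electron transfer flavoprotein to the respiratory chain. Peroxisomes shorten very long chains and other poor mitochondrial substrates. In liver, PPARalpha is a nuclear receptor that binds fatty acids, pairs with RXR on direct repeats, and raises most of these genes in fasting.

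PPARalpha with RXR recognises 2 copies of the half-site AGGTCA separated by 1 base. The letters AGGTCA, 1 base of any kind, AGGTCA were searched on both strands of RefSeq promoters of build GRCm38.p6, each holding 250 bases before and 50 bases after a gene start, with up to 2 mismatches among the 12 named letters. Promoters were at hand for 36 of the 41 genes, 41 promoters in all. The letters occurred in 7 of these 41 (17.1%) and in 3.86% of all 32851 promoters. The promoters with a match were those of Fabp1, with 1 mismatch, and of Acot4, Cd36, Creb3l3, Etfa, Plin2 and Slc25a20, with 2. A match describes letters and not a bound site, and this window is short. The promoters printed are those of 3 measured genes with a match and those of the genes with the largest fall and the largest rise in tumours. Acot4 (peroxisomal thioesterase, chr12:84038129-84038428, plus strand) and Slc25a20 (carnitine-acylcarnitine carrier, chr9:108661886-108662185, plus strand) were lower in tumours, and Plin2 (lipid droplet coat protein, chr4:86670010-86670309, minus strand) was higher. Acot1 (cytosolic thioesterase, chr12:84009252-84009551, plus strand) fell most and Fgf21 (a fasting hormone of liver, chr7:45615441-45615740, minus strand) rose most, and neither held the letters in this window. Each is written from 5′ to 3′ along the gene's strand, and capitals mark the match.
Acot4: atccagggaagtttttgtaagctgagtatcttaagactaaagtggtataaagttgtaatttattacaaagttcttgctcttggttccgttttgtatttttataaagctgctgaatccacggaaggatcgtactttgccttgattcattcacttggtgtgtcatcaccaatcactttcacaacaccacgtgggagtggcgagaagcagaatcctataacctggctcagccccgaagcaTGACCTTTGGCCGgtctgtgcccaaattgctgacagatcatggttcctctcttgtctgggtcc
Slc25a20: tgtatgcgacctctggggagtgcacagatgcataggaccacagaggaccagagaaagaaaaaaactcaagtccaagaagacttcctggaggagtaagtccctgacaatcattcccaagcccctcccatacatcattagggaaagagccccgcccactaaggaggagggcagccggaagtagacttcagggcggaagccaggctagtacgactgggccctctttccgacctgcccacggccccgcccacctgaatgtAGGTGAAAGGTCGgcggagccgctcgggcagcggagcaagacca
Plin2: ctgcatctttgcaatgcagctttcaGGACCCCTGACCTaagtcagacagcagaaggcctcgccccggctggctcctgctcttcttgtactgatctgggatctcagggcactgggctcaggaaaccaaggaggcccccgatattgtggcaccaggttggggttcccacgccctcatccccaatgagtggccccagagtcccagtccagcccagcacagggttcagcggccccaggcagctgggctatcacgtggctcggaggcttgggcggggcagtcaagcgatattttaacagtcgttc
Acot1: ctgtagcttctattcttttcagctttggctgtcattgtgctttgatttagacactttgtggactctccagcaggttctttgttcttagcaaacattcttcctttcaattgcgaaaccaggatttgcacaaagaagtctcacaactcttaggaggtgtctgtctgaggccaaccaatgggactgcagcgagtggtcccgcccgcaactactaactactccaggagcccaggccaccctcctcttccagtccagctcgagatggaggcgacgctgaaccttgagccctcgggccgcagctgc
Fgf21: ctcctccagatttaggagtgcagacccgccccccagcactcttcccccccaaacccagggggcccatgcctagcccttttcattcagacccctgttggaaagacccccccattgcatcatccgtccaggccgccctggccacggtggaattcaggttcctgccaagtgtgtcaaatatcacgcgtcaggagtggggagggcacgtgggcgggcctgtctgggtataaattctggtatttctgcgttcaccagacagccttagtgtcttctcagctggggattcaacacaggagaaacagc

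Hepatocyte markers were measured in all groups, and their summed intensity was 104000 to 127000 over the livers and 84400 to 111000 over the tumours. Of 7 such markers, Apoa1, Ttr and Hnf4a did not pass the limit between placebo tissues, Alb and Serpina1a were higher in tumours, and Cps1 (-1.25, adjusted p = 0.000167) and Cyp2e1 (-2.13, adjusted p = 2.01e-06) were lower. Fetal markers Afp and Gpc3 were higher in placebo tumours. A score was built from 1063 other genes with a difference of at least 2-fold past the limit between the placebo tissues, scaled so that livers are near 0 and placebo tumours near 1. The score ran from 0.817 to 1.096 in placebo tumours but was 0.301 and 0.681 in the tumours of BEZ235 animals 693 and 759, 0.459 and 0.572 in those of RAD001 animals 732 and 730, and 0.389 in that of combination animal 773, while the liver of combination animal 742 stood at 0.284. Tumours of RAD001 animals 763 (0.711) and 700 (0.812) and of combination animal 726 (0.814) also lay below the placebo range.

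Placebo tumours against placebo livers asked how the program differs in untreated tumours. Tumours held less transcript of most oxidation genes. Of the 34 genes tested, 25 were lower in tumours, against 16% of all genes tested, and 3 were higher, against 18.8% of all. The median difference over the 34 was -0.65 on the log2 scale, and over all genes 0.01. For 10 genes the tumour mean of every animal lay below every liver, which 8.13% of all genes did. For 2 every such mean lay above every liver, which 9.45% did. Single tumours overlapped the livers for some of these genes. In whole tissue, fewer hepatocytes and less RNA per hepatocyte cannot be told apart. Beside this fall, 6 of 6 measured Kupffer cell and macrophage markers were lower in tumours, and 3 of 6 stellate cell markers and 4 of 5 tumour and fetal markers were higher. The summed intensity of the Kupffer markers was 1590 to 4380 in livers and 272 to 1400 in tumours. For stellate markers it was 964 to 1680 in livers and 2970 to 5480 in tumours. Of 7 measured hepatocyte markers, 2 were higher and 2 lower, and their summed intensity was 118000 to 127000 in livers and 86400 to 103000 in tumours. Endothelial markers were higher for 2 of 6, although their summed intensity was 4050 to 5420 in livers and 1870 to 4720 in tumours. Cholangiocyte markers were higher for 1 of 2, and red cell markers lower for 1 of 2. None of the measured T and NK, B cell, neutrophil or adipocyte markers passed, and Cd8a, Cd4, Cd79a and Adipoq were not above noise. The part of these cell types in the result was not tested.

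**Figure D1:**
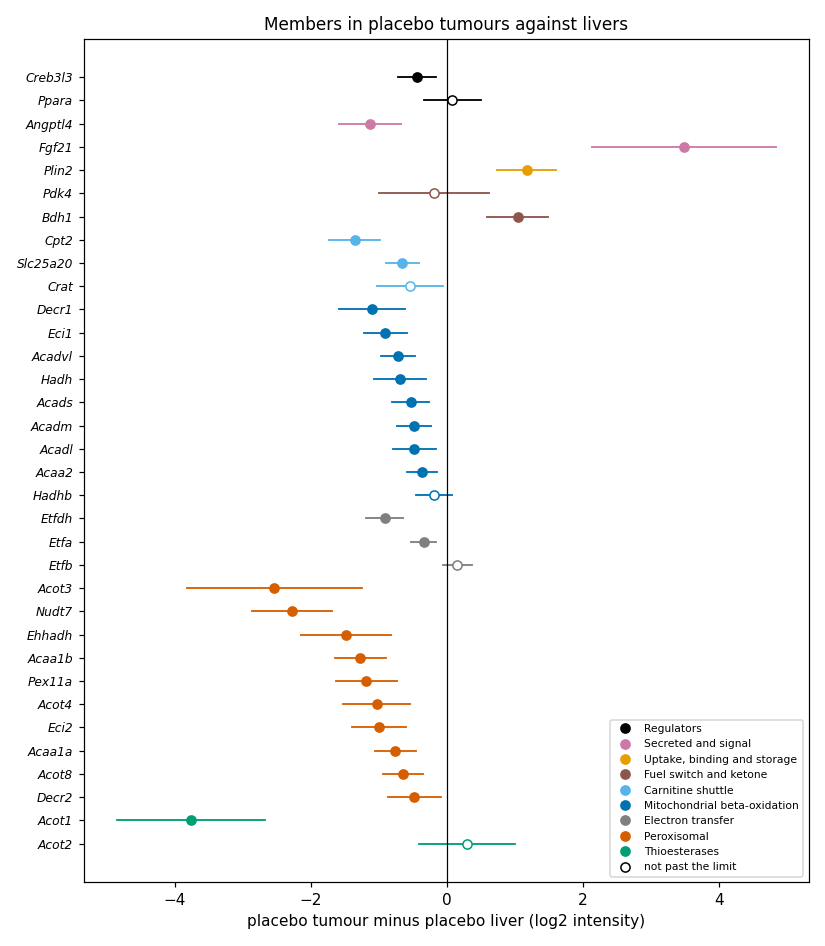
Difference between placebo tumours (n = 6 animals) and placebo livers (n = 7) for each of the 34 genes on the log2 intensity scale, with 95% confidence intervals from limma as bars, grouped and coloured by role. Filled points passed the adjusted p limit of 0.05. The 10 peroxisomal genes, Acot3, Acot4 and Acot8 among them, all lie to the left of 0, and Fgf21, Plin2 and Bdh1 are the filled points to the right.

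Peroxisomal genes were lower without exception in this comparison, 10 of 10 past the limit with a median of -1.11, counting Acot3, Acot4 and Acot8, which are thioesterases as well. Nudt7, a peroxisomal diphosphatase of coenzyme A, ranged from 12.61 to 13.92 in livers (median 13.39, n = 7) and from 10.61 to 11.55 in tumours (median 10.85, n = 6). These animal means did not overlap with livers, though a single tumour of animal 747 stood at 12.64. Tumours were 4.84-fold lower (log2 -2.28, SE 0.29, adjusted p = 1.97e-08). Acaa1b, a peroxisomal thiolase, ran from 14.57 to 14.96 in livers (median 14.85) and from 13.11 to 14.43 in tumours (median 13.35), a 2.41-fold difference (adjusted p = 3.7e-07). Animal means again did not overlap with livers, though a single tumour of animal 710 stood at 14.62. Ehhadh, the bifunctional enzyme of the peroxisomal cycle, ran from 8.31 to 9.16 in livers (median 8.75) and from 6.54 to 8.52 in tumours (median 6.96). The tumour mean of animal 710 reached into the liver range, while all 6 animal means lay below the liver mean, and tumours were 2.8-fold lower (log2 -1.49, SE 0.33, adjusted p = 0.000295). Pex11a, which promotes peroxisome division, ran from 11.51 to 12.39 in livers (median 11.87) and from 9.95 to 11.55 in tumours (median 10.55), 2.27-fold lower (adjusted p = 3.06e-05). Acaa1a, Eci2, Decr2, Acot3, Acot4 and Acot8 made up the rest. Among them Decr2, the peroxisomal dienoyl-CoA reductase, was the weakest, at -0.48 with an adjusted p of 0.0495. It stayed past the limit in 3 of 9 fits that left out 1 animal and in 4 of 13 other settings, and with the animal as a fixed block its adjusted p was 0.0523.

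Thioesterases, which free fatty acids from coenzyme A, held the largest fall. Acot1 ranged from 11.91 to 12.87 in placebo livers (median 12.75) and from 7.4 to 11.44 in placebo tumours (median 8.51). Animal means did not overlap with livers, and tumours were 13.6-fold lower (log2 -3.77, SE 0.54, 95% interval -4.85 to -2.68, adjusted p = 2.49e-07). The highest mean was that of animal 710, and the next stood at 8.61. Single tumours of animal 710 stood at 10.78 and 12.11, the latter above the liver of animal 771 at 11.91. Without animal 710 or any other single animal, the difference lay between -4.33 and -3.59. A second probe of Acot1 gave -3.64. Acot3, a peroxisomal relative, ran from 6.33 to 10.44 in livers (median 7.89) and from 4.38 to 8.66 in tumours (median 4.94), and only 5 of 10 tumour arrays were above noise, so that the 5.8-fold difference is compressed by the floor (adjusted p = 0.00139). Acot4 ran from 7.53 to 8.94 in livers (median 8.33) and from 6.56 to 7.97 in tumours (median 7.13), 2.05-fold lower (adjusted p = 0.000605). Acot2, the mitochondrial form, was near the floor in both tissues and did not pass (0.30, interval -0.41 to 1.00). It is the only gene of 16 with several kept probes whose probes differed in sign, the others giving -0.14. Acot1 and Acot2 are near-identical paralogs on chromosome 12, and whether their probes also bind each other's transcript was not tested.

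The carnitine shuttle and the mitochondrial cycle were lower by smaller amounts. Cpt2, the inner-membrane carnitine palmitoyltransferase, ran from 10.67 to 11.24 in livers (median 11.11) and from 9.42 to 10.26 in tumours (median 9.61). No tumour reached a liver, and the difference was 2.55-fold (log2 -1.35, SE 0.19, adjusted p = 9.94e-08). Slc25a20, which carries acylcarnitines across the inner membrane, was 1.58-fold lower (adjusted p = 2.05e-05). Crat, the carnitine acetyltransferase, missed the limit (log2 -0.54, interval -1.03 to -0.05, adjusted p = 0.0788), and passed it at 0.00342 when animal 710 was left out. Of 9 measured enzymes of the mitochondrial cycle, 8 were lower, with a median of -0.53. Decr1, the mitochondrial dienoyl-CoA reductase, ran from 8.62 to 9.14 in livers (median 8.91) and from 6.82 to 8.77 in tumours (median 7.79), 2.14-fold lower (adjusted p = 0.000276). Acadm, the medium-chain dehydrogenase, ran from 13.03 to 13.33 in livers (median 13.27) and from 12.59 to 13.19 in tumours (median 12.67). Only the mean of animal 710 reached the liver range, its single tumours standing at 12.81 and 13.56. The difference was 1.39-fold (log2 -0.48, SE 0.13, adjusted p = 0.00209). The remaining calls, Eci1, Acadvl, Hadh, Acads, Acadl and Acaa2, lay between -0.90 and -0.37. Hadhb, the beta subunit of the trifunctional protein, was not past the limit (-0.19, interval -0.45 to 0.08). Of the electron transfer genes, Etfdh, which passes electrons to ubiquinone, was 1.88-fold lower without overlap and Etfa 1.27-fold lower, whereas Etfb stood at 0.15 (adjusted p = 0.278). These sizes are those of the brightest probe, and dimmer probes differed in size. They gave log2 differences of -1.095 for Slc25a20, -0.803 for Acadm, -0.684 to -0.474 for Acaa2 and -0.577 to -0.515 for Etfa. Falls were smaller on the dimmer probes of Crat (-0.165 and -0.108) and Etfdh (-0.166).

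Several calls were lost within animals, while the differences kept their sign. With the animal as a fixed block, the placebo difference rests on the 4 placebo animals that gave both tissues. The spread in that fit was estimated from the 18 animals of all treatments with both tissues. The adjusted p was then 0.0575 for Acadm, 0.0612 for Acadl, 0.0804 for Acads, 0.0503 for Acaa2, 0.0661 for Angptl4 and 0.171 for Creb3l3. Their log2 differences in that fit were -0.485, -0.561, -0.428, -0.35, -0.812 and -0.327 in this order. In the main fit they were -0.48, -0.476, -0.533, -0.368, -1.128 and -0.433. Acadl was also past the limit in only 7 of 9 fits that left out 1 animal, reaching 0.0893 without animal 748 and failing without 771 too. Creb3l3 failed without animal 747, at 0.0766.

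Regulators and signals split. Ppara, which encodes the receptor, ran from 5.38 to 6.56 in livers (median 5.86) and from 5.44 to 6.48 in tumours (median 5.96). The ranges nearly coincided, and the difference was 0.08 with an interval of -0.34 to 0.51. Creb3l3, a hepatocyte transcription factor that acts with PPARalpha on Fgf21, ran from 9.45 to 9.92 in livers (median 9.62) and from 8.5 to 9.6 in tumours (median 9.22), 1.35-fold lower (adjusted p = 0.0122). Angptl4, a secreted inhibitor of lipoprotein lipase, ran from 11.13 to 12.37 in livers (median 12.16) and from 10.28 to 11.78 in tumours (median 10.46), 2.18-fold lower (adjusted p = 7.84e-05). Its 6 animal means in tumours fell into 4 near 10.4 and 2 near 11.8, and the liver of animal 710 was the only liver inside their range.

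Those higher in placebo tumours were 3 genes. Fgf21 ranged from 5.19 to 7.88 in livers (median 6.06) and from 8.49 to 12.36 in tumours (median 9.39). These animal means did not overlap with livers, though a single tumour of animal 747 stood at 7.2. Tumours were 11.2-fold higher (log2 3.49, SE 0.67, adjusted p = 4.13e-05). Its highest tumour was that of animal 710, without which the difference was 2.89. Plin2, which coats lipid droplets, ran from 9.18 to 10.06 in livers (median 9.68) and from 9.81 to 11.45 in tumours (median 11.06), 2.26-fold higher (log2 1.18, SE 0.22, adjusted p = 2.37e-05). The mean of animal 747 lay inside the liver range, its single tumours standing at 9.51, 9.71 and 10.21. Bdh1, the mitochondrial hydroxybutyrate dehydrogenase of ketone body metabolism, ran from 10.57 to 11.34 in livers (median 10.95) and from 11.59 to 12.54 in tumours (median 11.97), 2.06-fold higher (adjusted p = 0.000182). Its animal means did not overlap with livers, though a single tumour of animal 747 stood at 10.9. Pdk4, the kinase that shuts off pyruvate dehydrogenase, ran from 5.78 to 7.71 in livers (median 7.04) and from 5.75 to 8.2 in tumours (median 6.59) and did not differ past the limit (-0.19, interval -0.998 to 0.619).

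**Figure D2:**
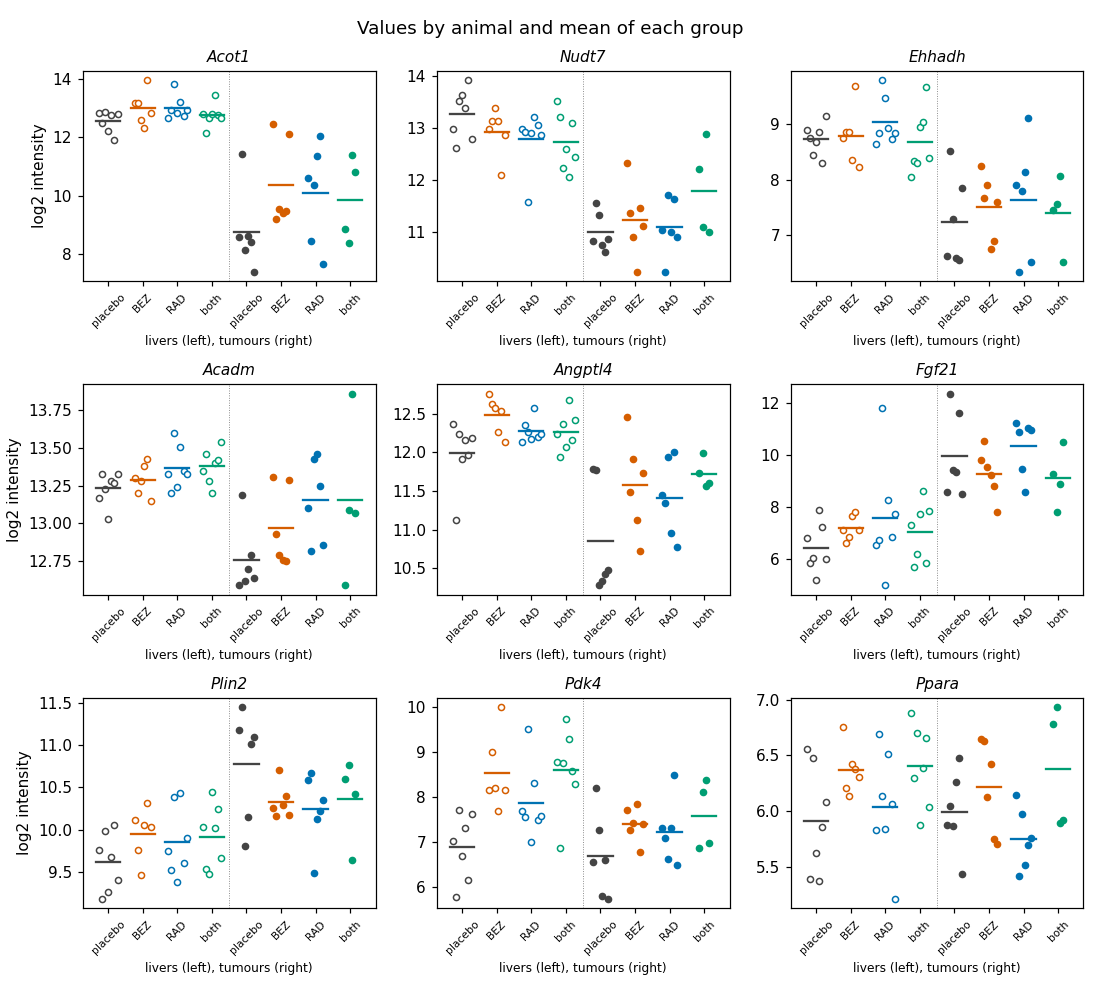
Log2 intensity of 9 genes in each animal, livers as open points on the left and tumours as filled points on the right of each panel, for placebo, BEZ235 (BEZ), RAD001 (RAD) and the combination (both), with bars at group means. Acot1 lies between 11.91 and 13.95 in livers and between 7.4 and 12.47 in tumours, whereas the Ppara ranges of livers and tumours largely coincide.

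Within animals, the liver and the mean of the tumours could be compared in 18 mice over all treatments. Acot1 was lower in the tumour in 18 of 18, with differences from -5.3 to -0.68 on the log2 scale, and so were Acot3, Acot4, Acot8, Acaa1b, Nudt7, Cpt2, Slc25a20, Acadvl, Acaa2 and Etfdh. Ehhadh was lower in 17 of 18. Fgf21 and Bdh1 were higher in the tumour in 17 of 18, and Plin2 in 15 of 18. Such pairs were not counted over all genes, so how common these counts are among other genes is not known. The animal in which Fgf21 was lower in the tumour, at -3.24, was RAD001 animal 732, whose liver stood at 11.83 while the other RAD001 livers were at 8.29 or below. That liver also had the highest Acot1, Ehhadh and Pdk4 and the lowest Nudt7 of the RAD001 livers.

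In the treated groups the tumours were compared with livers of the same treatment. For BEZ235, 23 of 34 genes were lower, against 12.1% of all genes, and 1 was higher, against 14%. For RAD001, 22 were lower, against 13.7%, and 1 higher, against 14.7%. For the combination, with tumour arrays from 4 animals, 16 were lower, against 8.72%, and 1 higher, against 10.5%. The median differences over the 34 genes were -0.77, -0.65 and -0.58, and over all genes within 0.01 of 0. Of the 34 genes, 15 passed the limit as lower in all 4 comparisons, as did 6.12% of all genes. They were Acot1, Acot3, Acot4, Acot8, Ehhadh, Acaa1b, Eci2, Nudt7, Cpt2, Slc25a20, Acadvl, Acaa2, Decr1, Eci1 and Etfdh. These include 7 of the 10 peroxisomal genes. Hadhb, Etfb, Acot2 and Ppara passed in none. Leaving out the tumours of BEZ235 animals 693 and 759 gave 26 lower and 2 higher for BEZ235, and leaving out those of RAD001 animals 730 and 732 gave 23 lower and 3 higher for RAD001. Without the tumour of animal 773 and the liver of 742 as well, the combination gave 19 lower and 3 higher. The arrays left out had scores between those of the other livers and placebo tumours on these same data. Leaving them out favours larger differences between tumour and liver, so these counts are no separate support.

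Acot1 tumours ranged from 9.2 to 12.47 under BEZ235 (median 9.52, n = 6) and from 7.65 to 12.05 under RAD001 (median 10.48, n = 6). Under the combination they were 8.37, 8.87, 10.82 and 11.41. The fall from liver was 6.19-fold, 7.55-fold and 7.3-fold for BEZ235, RAD001 and the combination. Nudt7 was 3.2-fold, 3.21-fold and 1.92-fold lower. Acadm, past the limit in placebo animals, gave -0.31 (adjusted p = 0.0712), -0.21 (0.218) and -0.23 (0.283) in BEZ235, RAD001 and combination animals. It passed for BEZ235 without the tumours of 693 and 759 (-0.48, adjusted p = 0.00735), for RAD001 without those of 730 and 732 (-0.36, adjusted p = 0.0458), and for the combination without animal 773 (-0.46, adjusted p = 0.0145). The tumours left out were those with the low scores given above, so that a larger difference without them was favoured. With no animal left out, Acadm passed for BEZ235 with the mean over its probes (-0.428, adjusted p = 0.0202). It also passed there with array weights (0.0209) and with 1 tumour per animal (0.0348). For the combination it passed with array weights (-0.355, adjusted p = 0.0402). Apart from single animals left out, 5 of 15, 2 of 15 and 2 of 14 other settings passed for BEZ235, RAD001 and the combination. Whether the difference between tissues changed with treatment was tested separately, as given further on.

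Fgf21 was the gene past the limit as higher in each treated group. It was 4.25-fold higher under BEZ235 (adjusted p = 0.0197), 6.73-fold higher under RAD001 (adjusted p = 0.00121) and 4.4-fold higher under the combination (adjusted p = 0.0376). With the animal as a fixed block the adjusted p was 0.0865, 0.0633 and 0.0624. The call was also lost without any 1 of BEZ235 animals 693, 697 and 712, or without any 1 of combination animals 713, 773 and 775, and for the combination it also failed with no block (adjusted p = 0.0533) and with array weights (0.0826), among 5 of 14 other settings. For RAD001 the log2 difference rose from 2.75 to 3.84 without animal 732. Plin2 stood at 0.38, 0.39 and 0.46 in the 3 treated groups, none past the limit. It passed for RAD001 without the tumours of 730 and 732 (0.61, adjusted p = 0.0474) and for the combination without animal 773 (0.77, adjusted p = 0.033). Here too the tumours left out were ones with low scores. With no animal left out, Plin2 passed for the combination with array weights (0.68, adjusted p = 0.0432). Pdk4 was lower in BEZ235 tumours than BEZ235 livers (-1.15, adjusted p = 0.0328), a call lost without animal 697, 712 or 755 and in 3 of 15 other settings.

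**Figure D3:**
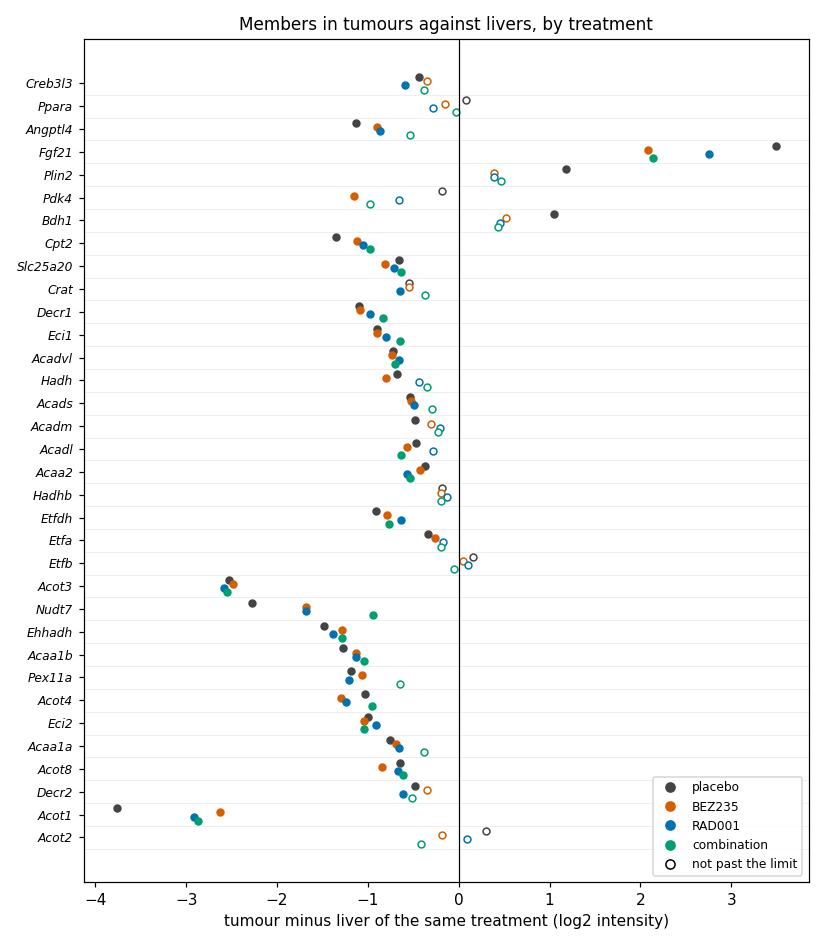
Difference between tumours and livers of the same treatment for each gene on the log2 intensity scale, with 1 point per treatment, filled where the adjusted p was under 0.05. Acot1, Acot3 and Nudt7 are at or below -0.94 in all 4 treatments, and the Fgf21 points lie between 2.09 and 3.49.

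Treated livers were compared with placebo livers to see whether the inhibitors moved these genes outside tumours. By limma none of the 34 genes passed the limit. Of all genes, 0.0286% passed with BEZ235, 0% with RAD001 and 0.276% with both. At an unadjusted p under 0.05 there were 4, 3 and 7 of the 34 genes, or 11.8%, 8.82% and 20.6%, beside 5.15%, 6.42% and 8.44% of all genes tested. The 3 comparisons share the 7 placebo livers. Intervals of the difference lay within 2-fold either way for 30, 30 and 29 of the 34 genes, and the exceptions were Pdk4, Fgf21, Acot2, Acot3 and, for the combination, Nudt7.

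Pdk4 had the largest difference in livers of BEZ235 and combination animals. It ranged from 5.78 to 7.71 in placebo livers (median 7.04), from 7.7 to 10 under BEZ235 (median 8.19), from 7 to 9.51 under RAD001 (median 7.59) and from 6.87 to 9.73 under the combination (median 8.76). All 6 BEZ235 livers, all 7 RAD001 livers and 6 of 7 combination livers lay above the placebo mean, and each group overlapped the placebo range. The differences were 1.64 (interval 0.79 to 2.49, adjusted p = 0.269), 0.98 (0.16 to 1.80, adjusted p = 0.705) and 1.71 (0.89 to 2.53, adjusted p = 0.0594). For the combination the call turned on settings. It passed without combination animal 713 or placebo animal 724, and, as the one gene of the 34, on deposited values without further normalization (adjusted p = 0.0454), with arrays centred on their median (0.0488) and with array weights (0.0338).

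Other genes with an unadjusted p under 0.05 were small in size. Slc25a20 was 0.21, 0.25 and 0.25 higher in livers under BEZ235, RAD001 and the combination (adjusted p = 0.942, 0.642 and 0.423). Angptl4 ranged from 12.14 to 12.76 under BEZ235 against 11.13 to 12.37 under placebo, a difference of 0.49 (adjusted p = 0.644). Ppara stood 0.46 higher under BEZ235 and 0.50 higher under the combination (adjusted p = 0.942 and 0.471). Acot1 stood 0.46 higher under RAD001 (adjusted p = 0.75). Under the combination Acadl, Acaa2 and Acot2 were 0.35, 0.20 and 0.83 higher, and Nudt7 stood at -0.53 with an adjusted p of 0.565. Of the 34 genes, 24, 28 and 26 had a positive difference under BEZ235, RAD001 and the combination, beside 50.1%, 50.8% and 48.7% of all genes, and the medians were 0.08, 0.13 and 0.15. On deposited values without further normalization the counts were 23, 32 and 31, with medians of 0.06, 0.22 and 0.21. The medians over all genes were then -0.022, 0.041 and 0.019. Deposited values were quantile-normalized within each treatment, so differences of scale between treatments remain in these counts.

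**Figure D4:**
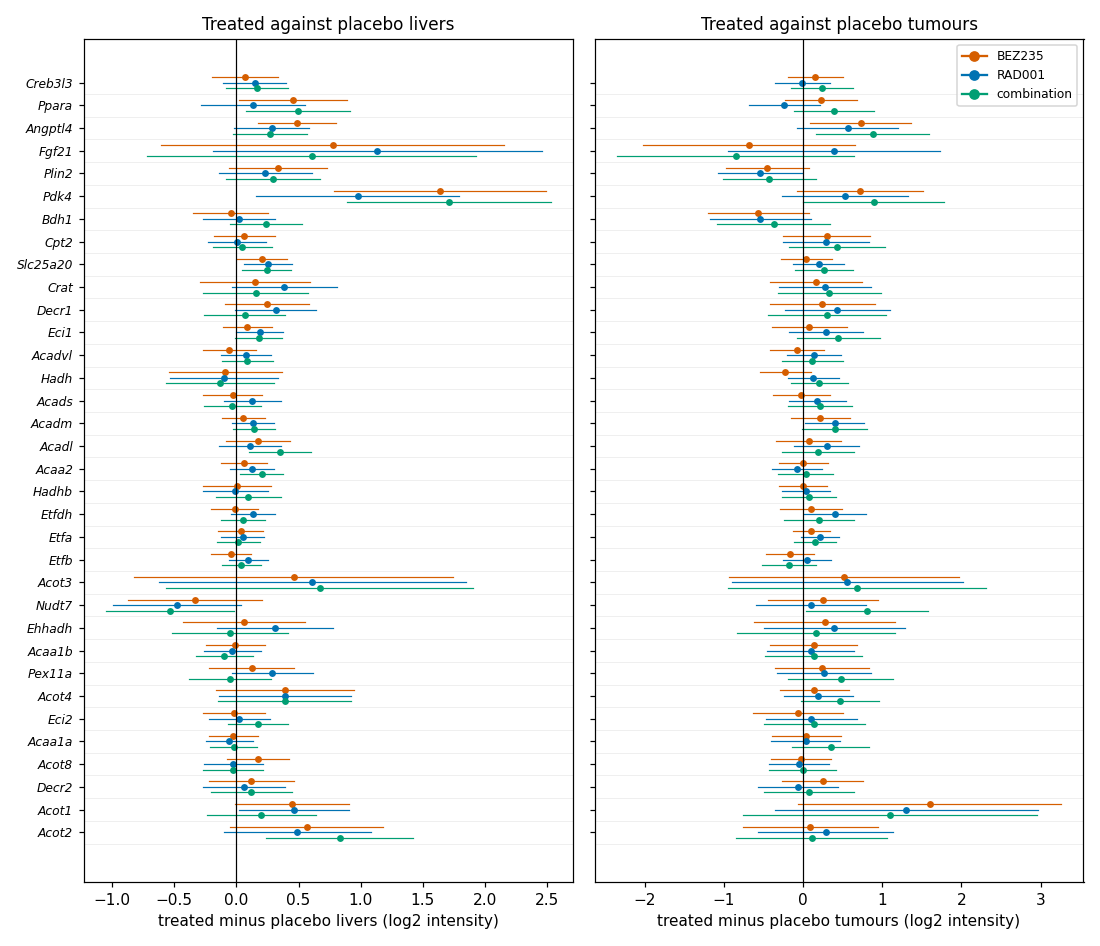
Difference between treated and placebo tissue for each gene, livers on the left and tumours on the right, on the log2 intensity scale with 95% confidence intervals from limma. The Pdk4 intervals in livers lie above 0, no gene passed the adjusted limit, and the tumour intervals are wider, with a median width of 0.977 for BEZ235 tumours beside 0.575 for BEZ235 livers.

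In tumours no gene of the 34 passed against placebo by limma, and of all genes 0% passed with BEZ235, 0% with RAD001 and 0% with both agents. Genes with an unadjusted p under 0.05 numbered 1, 3 and 3 of the 34, beside 5.32%, 7.05% and 7.99% of all genes. These 3 comparisons share the 6 placebo tumour animals. Angptl4 stood 0.73 higher under BEZ235 (interval 0.09 to 1.36, adjusted p = 0.912) and 0.88 higher under the combination (0.17 to 1.59, adjusted p = 0.522). The animal means of its combination tumours were 11.57, 11.61, 11.73 and 11.99, within a narrow range, whereas those of placebo tumours ran from 10.28 to 11.78. Under RAD001, Acadm and Etfdh were each 0.40 higher (adjusted p = 0.696 and 0.704), and Plin2 stood at -0.54 (adjusted p = 0.704). Nudt7 stood 0.81 higher under the combination (interval 0.03 to 1.58, adjusted p = 0.614), and 0.45 higher without combination animal 773. Acot1 stood 1.60, 1.31 and 1.09 higher in tumours of BEZ235, RAD001 and combination animals. None had an unadjusted p under 0.05, and without the tumours of 693 and 759 the BEZ235 difference was 0.64. The combination difference was 0.58 without animal 773 and 1.63 without placebo animal 710. Pdk4 was at 0.71, 0.53 and 0.89, and Fgf21 at -0.68, 0.39 and -0.85, with adjusted p of 0.624 or above. Without placebo animal 710 the Fgf21 values were -0.21, 0.865 and -0.38, and without RAD001 animal 763 the RAD001 value of Pdk4 was 0.28. Intervals lay within 2-fold either way for 27, 24 and 21 of the 34 genes, so that moderate changes of the others were not detectable with these numbers of animals.

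The difference of a treatment effect between tumours and livers was tested next. None of the 34 genes passed by limma, beside 0% of all genes with BEZ235, 0.0191% with RAD001 and 0.00953% with both, and 1, 1 and 2 had an unadjusted p under 0.05. These counts are 2.94%, 2.94% and 5.88% of the 34 genes, below the 5.35%, 7.5% and 8.44% of all genes. Plin2 was the gene among them in each comparison, at -0.79 (interval -1.42 to -0.16, adjusted p = 0.849), -0.79 (-1.41 to -0.17, adjusted p = 0.555) and -0.71 (-1.37 to -0.06, adjusted p = 0.565). Without animal 773 the combination value was -0.41. Its tumours ranged from 10.16 to 10.71 under BEZ235 (median 10.28), from 9.49 to 10.67 under RAD001 (median 10.29), and were 9.64, 10.42, 10.6 and 10.77 under the combination, beside a placebo median of 11.06. Nudt7 was the other gene for the combination, at 1.34 (interval 0.46 to 2.21, adjusted p = 0.413), and at 1.04 without animal 773. Its combination tumours were at 11, 11.09, 12.21 and 12.88. All 3 tests share the placebo animals.

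Between treatments, doses differed, and no gene of the 34 passed by limma in any of 6 comparisons. In livers the shares of all genes past the limit were 0.877% for combination against RAD001, 0% for combination against BEZ235 and 0.152% for BEZ235 against RAD001, with 1, 0 and 0 of the 34 genes at an unadjusted p under 0.05, beside 9.79%, 3.9% and 8.59% of all genes. In tumours they were 0.0191%, 0% and 0.00953%, with 1, 1 and 2 genes, or 2.94%, 2.94% and 5.88%, beside 4.58%, 2.86% and 3.83% of all. Pex11a stood at -0.34 for combination minus RAD001 livers (adjusted p = 0.491). Ppara was 0.63 higher in combination than RAD001 tumours (adjusted p = 0.899) and 0.46 higher in BEZ235 than RAD001 tumours (0.994). Intervals lay within 2-fold either way for 31, 32 and 31 of the 34 genes in livers and for 25, 28 and 29 in tumours.

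Tumours were more variable than livers in these genes. The median SD between livers of a group was 0.252 over the 34 genes, and that between the tumour means of animals 0.43. Between separate tumours of one animal it was 0.448 in 12 animals with 27 tumours. Over all genes these medians were 0.278, 0.291 and 0.322. For 29 of the 34 genes the SD between the tumour means of animals exceeded that between livers, as it did for 59.9% of all genes. Acot1 had an SD of 1.4 between tumours of one animal and 0.43 between livers. In placebo animal 747 its 3 tumours stood at 5.75, 8.6 and 10.08, and the same tumours had Pdk4 at 4.98, 6.75 and 10.08. Animal 710 was the placebo animal whose tumours lay nearest the livers. The median deviation of its 34 genes from the placebo liver means was -0.102, while the other 5 placebo tumour animals lay between -0.961 and -0.512. Its tumour score without these genes was 0.817, also the lowest of the placebo tumour animals. In treated tumours the least negative medians were -0.157 in BEZ235 animal 693, -0.214 in RAD001 animal 763 and -0.173 in combination animal 773. Livers lay between -0.103 and 0.317.

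**Figure D5:**
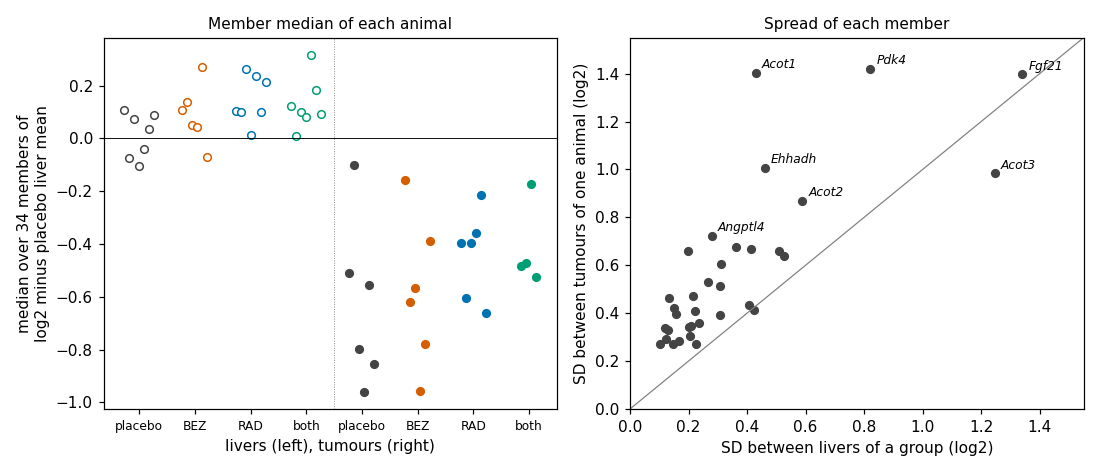
Left, the median over the 34 genes of each animal's log2 value minus the placebo liver mean, livers as open and tumours as filled points (BEZ, BEZ235; RAD, RAD001; both, combination). Right, for each gene the SD between tumours of one animal against the SD between livers of a group, both in log2 units, with a line of equal spread. Placebo animal 710 is the highest placebo tumour point at -0.102, and most genes lie above the line.

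A list of 136 further genes of fatty acid uptake, carnitine supply, mitochondrial, peroxisomal and omega oxidation, lipolysis, coregulators and other PPARalpha targets had 120 genes with a probe and 106 tested. In placebo tumours 61 of the 106 were lower, beside 16% of all genes, and 12 higher, beside 18.8%, with a median of -0.50. The 6 of lowest p were all lower. Ces1e, a carboxylesterase, had a liver mean of 10.07 ± 0.34 (SD, n = 7) and a tumour mean of 5.88 ± 0.63 (SD, n = 6). Its relative Ces1f had means of 12.65 ± 0.2 and 9.55 ± 1.08. Sult2a8, a hepatic sulfotransferase, had means of 11.26 ± 0.44 and 6.56 ± 0.34. Hacl1, a peroxisomal lyase of alpha-oxidation, had means of 9.12 ± 0.41 and 6.33 ± 0.81. Acadsb and Acad8, mitochondrial dehydrogenases of branched-chain acyl-CoAs, fell by 1.70 and 1.21 on the log2 scale, and adjusted p values of the 6 genes were 3.8e-10 or below. All 5 measured genes of omega oxidation were lower, with a median of -4.92, as were 10 of 12 other mitochondrial genes. Of 26 other peroxisomal genes 16 were lower and 2 higher, and of 11 partners and coregulators 6 were lower. Uptake and activation was mixed, with 4 of 11 lower and 3 higher, which were the acyl-CoA synthetases Acsl3 (1.01), Acsl4 (1.85) and Acsl5 (1.04). Lipolysis and droplets had 4 of 12 lower and 3 higher, namely Lpl, the lipoprotein lipase (2.71), Hilpda, an inhibitor of lipolysis (1.79), and Abhd5, an activator of lipolysis (0.84). Other targets had 13 of 23 lower and 3 higher, namely the apolipoprotein Apoa4 (3.33) and the desaturases Fads1 (0.85) and Fads2 (1.91). Those 9 genes were named after their values were seen. Carnitine supply had 2 of 3 lower, and the list of the shuttle's gate 1 lower and 1 higher of 2. In BEZ235, RAD001 and combination animals 50, 60 and 43 of the 106 were lower and 12, 11 and 10 higher. Of all genes 12.1%, 13.7% and 8.72% were lower and 14%, 14.7% and 10.5% higher. None of the 106 passed by limma in any comparison of a treatment with placebo, while 4, 7 and 11 in livers and 9, 8 and 14 in tumours had an unadjusted p under 0.05 for BEZ235, RAD001 and the combination. These are 3.77%, 6.6% and 10.4% of the list in livers, and 8.49%, 7.55% and 13.2% in tumours, where all genes gave 5.15%, 6.42%, 8.44%, 5.32%, 7.05% and 7.99% in the same order.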

How the data were processed

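RNA of 27 livers and 37 tumours was measured on Illumina arrays. The deposited values are linear probe intensities, background-subtracted in BeadStudio per the submitters' processing notes, and the authors' intensities hold a quantile normalization within each treatment, as the values show. A second table with 128 value columns whose names match no sample was not used. Starting from these, the 64 arrays were brought to one distribution by quantile normalization, corrected by normexp (mean 0, SD 7.02 from mirrored negative values), and log2 was taken after an offset of 16, so that folds of dim genes are understated. These log2 values come from the deposited intensities alone. Probes above 14 on at least 6 arrays were kept (15244 of 25697), and the brightest stood for a gene.

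Symbols came from the platform annotation, updated by Entrez number. Tests were limma's moderated test (R 4.3.3, limma 3.58.1), two-sided, with Benjamini-Hochberg adjustment over 10495 genes. Tumours of an animal were averaged. Tumours were set against livers in one fit of the 8 groups in which the animal entered as a random block (correlation 0.0968), the number that opens each sample title being read as the mouse. Treatments were compared within livers or within tumours. No source used here gives chip or scan batches, so none could be fitted. The number of arrays limits the precision. Values by animal are given for any gene past the limit against placebo, for the 10 largest falls and 6 largest rises in placebo tumours, and for 12 genes whatever their p, of which Cpt1a, Cd36 and Fabp1 were too dim. The genes, lists and rule were chosen with earlier results of these data known.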

Additional observations from a re-analysis of the deposited data

Results flagged for a closer look

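Of 272 sets of 1 gene in 1 group, 15 (5.51%) held an animal whose gap to its nearest neighbour exceeded Dixon's 95% critical value, about the 1 in 20 that chance gives, so the flags are values to look at and no more. In placebo tumours animal 710 stood high for Acadm at 13.19, Acot1 at 11.44 and Acot3 at 8.66, beside nearest values of 12.79, 8.61 and 5.43. In placebo livers it stood low for Angptl4 at 11.13, while animal 724 was low for Hadhb at 10.45 and animal 771 high for Etfb at 13.44. The tumour of combination animal 773 was high for Cpt2 at 10.91 and Acads at 10.77 and low for Etfb at 12.68, and its liver was high for Acadvl at 12.1 and Eci2 at 10.95. In BEZ235 tumours animal 759 was high for Acadl at 8.19 and animal 728 low for Hadh at 4.49, which is below the noise limit. RAD001 animal 732 was low for Acaa2 in its tumour at 11.69 and low for Nudt7 in its liver at 11.58.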

How the results depend on the processing

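Every count of genes past the limit was recomputed with other normalizations, background corrections, offsets, filters, probe rules, weights, tumour handling and blocks, and without each animal in turn. All but 1 of the 19 counts kept within 1.5 times. The exception was combination against placebo livers, where 0 became 1 (Pdk4) on deposited values, with arrays centred on their median and with array weights, and ran from 0 to 1 without single animals. Tumour against liver gave 28, 24, 23 and 17 genes for placebo, BEZ235, RAD001 and combination, with ranges of 26 to 29, 21 to 25, 22 to 24 and 12 to 20 without single animals. With the animal as a replicate block the counts were 21, 21, 20 and 15, and in the 3 comparisons of a treatment effect between tissues the block kept 0. Of the 28 placebo calls, 21 held in all settings. The differences that changed sign, Pdk4 and Ppara, were not past the limit. Pdk4 in placebo tumours was 0.043 with every tumour as its own array, 0.004 with the replicate block, and -0.693 to 0.073 without single animals, and Ppara was -0.052 with 1 tumour per animal and -0.064 to 0.224 without single animals. The causes were not tested. Leaving out the 5 tumours and 1 liver that lay between the groups was chosen after seeing the data. Genes near the array floor, such as Hadh, Acot2 and Acot3, are limited by noise.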
